A study of Homo sapiens with 3 samples.

Results

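The long noncoding host transcripts of small nucleolar RNAs (snoRNAs) described here are GAS5, SNHG1, SNHG3, SNHG5, SNHG6, SNHG7, SNHG8, SNHG12, SNHG15 and SNHG16, 10 genes of the 20046 that the array annotation names. They were chosen by symbol: 13 probes of 47323 carry the symbol of one of them. These probes cover 9 of the 10 genes. SNHG16 has no probe listed under its symbol, so its level is not analysed here. Only its annotated start and the snoRNAs inside its gene enter the counts below. The cells were 293T, which descend from HEK293, a line of human embryonic kidney, and express SV40 large T antigen. Each of 3 samples was lipid transfected, and its total RNA was taken after 48 h: 1 received siTARBP2-1 (siRNA 1), 1 received siTARBP2-2 (siRNA 2), both against TARBP2, and 1 received siControl. The series design speaks of mock-transfected cells where the sample label says siControl. Each transfection had 1 array, so the siRNAs are the only replicates of the knockdown and the control has no spread of its own. Whether the arrays came from separate cultures is not stated in the labels, and p-values measure only the spread between these arrays.

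A snoRNA host gene is transcribed by RNA polymerase II and spliced, and the snoRNAs are trimmed out of the excised introns. Box C/D snoRNAs (SNORD) guide ribose methylation and box H/ACA snoRNAs (SNORA) guide pseudouridylation of ribosomal and spliceosomal RNAs. The spliced exons of many of these hosts hold no long reading frame, but ribosomes engage them, and nonsense-mediated decay (NMD) then degrades them. Many of the hosts also begin like ribosomal protein mRNAs, with a terminal oligopyrimidine (TOP) tract, a cytosine followed by an unbroken run of pyrimidines, which ties their translation to mTOR signalling. The level of a spliced host is therefore known to depend on translation and decay as well as on transcription, and it need not follow the level of the snoRNAs. TARBP2, the gene knocked down here, encodes TRBP, which binds double-stranded RNA and works with the nuclease DICER1.

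The start of the gene is the sequence feature by which these hosts are best known. The 20 bases before and 40 bases after the annotated start are therefore shown for 7 hosts that have a probe. Each of the 7 has an entry in the RefSeq start table. The start of SNHG6 is not reported here and is not in the counts of hosts below. Capitals mark every run of at least 5 pyrimidines after the start, which lies at base 21 of each line. The sequences are from RefSeq on GRCh38.p14, 5′ to 3′ on the gene's strand: SNHG12 is the minus strand of chr1:28581834-28581893, SNHG5 the minus strand of chr6:85678694-85678753, SNHG1 the minus strand of chr11:62855846-62855905, SNHG3 the plus strand of chr1:28505923-28505982, SNHG7 the minus strand of chr9:136728145-136728204, SNHG8 the plus strand of chr4:118278742-118278801 and GAS5 the minus strand of chr1:173869006-173869065.
SNHG12: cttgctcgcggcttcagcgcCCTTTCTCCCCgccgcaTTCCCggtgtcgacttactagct
SNHG5: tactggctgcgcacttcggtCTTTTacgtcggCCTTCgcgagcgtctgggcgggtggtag
SNHG7: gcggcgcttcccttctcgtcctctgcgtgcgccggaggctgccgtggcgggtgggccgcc
SNHG8: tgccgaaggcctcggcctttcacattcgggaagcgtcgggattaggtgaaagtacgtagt
SNHG1: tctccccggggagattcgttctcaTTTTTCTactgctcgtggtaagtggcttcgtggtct
SNHG3: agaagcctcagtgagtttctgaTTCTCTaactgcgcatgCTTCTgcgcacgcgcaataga
GAS5: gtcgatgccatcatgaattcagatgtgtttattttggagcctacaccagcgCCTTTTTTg
SNHG12 has the longest tract at its very start, 11 pyrimidines in a row from base 1. SNHG5 begins with 5, and SNHG7 with 4. SNHG7 and SNHG8 hold no run of 5 in these 40 bases. The annotated starts of SNHG3 and GAS5 are purines, and their pyrimidine runs lie downstream. The starts counted were those printed above and that of SNHG16, which begins with G. Of these 8 hosts, 5 begin with C and 3 of these (SNHG5, SNHG7 and SNHG12) go on with at least 3 more pyrimidines. Over all 35116 starts in that table, 14.7% begin with C and 5.45% meet the longer pattern. A run of at least 5 pyrimidines anywhere in the first 40 bases is common, in 6 of the 8 hosts and 53.5% of all starts. Only the sense strand was read, and an annotated start need not be the start used in these cells.

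The mean raw signal was 680 (siRNA 1), 514 (siRNA 2) and 528 (control), and 18449 to 19155 probes per array were above background (detection p under 0.01). Signals were background corrected and quantile normalized, and levels below are log2 of that normalized signal. With 3 arrays, precision is set by their number. At the brighter TARBP2 probe the normalized signal was 6.27 and 6.09 with siRNA 1 and siRNA 2 and 8.38 in the control, so both knockdown arrays lay below it, with differences of -2.12 and -2.30. Of 7 genes chosen as marks of HEK293 cells, 6 were above background on at least 1 array and PAX2 was not. Of the marker genes of other cell types, 1 of 3 leukocyte, 2 of 3 hepatocyte, 1 of 4 fibroblast and 0 of 3 endothelial genes were. Over all genes, 11768 of 20046 were, and nothing is read from such small counts. The leukocyte gene CD14 and the fibroblast gene COL1A1 were above background on all 3 arrays. The other probes of CD14 and ALB were not above background on any array. The hepatocyte genes, ALB and APOA1, were above background on the control array alone, and their part in any result was not tested. These are bulk samples, in which less RNA per cell and fewer cells that hold it cannot be told apart.

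Of the 10 host genes, 8 passed the filter on dim probes: SNHG1, SNHG3, SNHG5, SNHG6, SNHG7, SNHG8, SNHG12 and SNHG15. None of the 8 passed limma's test of knockdown against control (Benjamini-Hochberg adjusted p = 0.99991 for each), and 0 of the 11768 tested genes did (background 0%). At unadjusted p under 0.05 there were 101 higher genes (0.858%) and 103 lower genes (0.875%), and 1 host, SNHG3, was among the lower. Limma with a trend and robust variance prior called 1 gene, TARBP2. The mean difference from control was below 0 for 6 hosts and above 0 for 2, with a median of -0.12 beside 0.01 over all tested genes. Of all tested genes, 5616 lay below 0 and 6152 above, and nothing is read from the signs of so few hosts. The size of the differences was that of an ordinary gene: the median absolute difference was 0.13 with siRNA 1 beside 0.14 over all genes, and 0.20 with siRNA 2 beside 0.20.

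**Figure D1:**
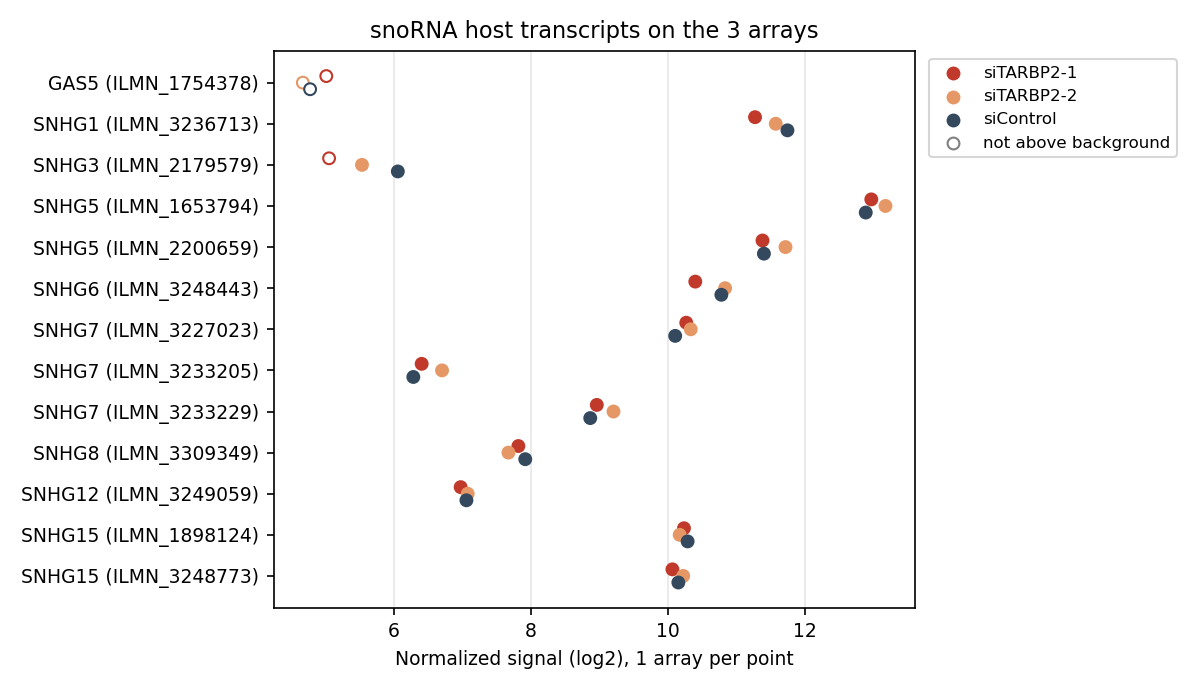
Normalized signal (log2, x axis) of the 13 host probes (y axis), with 1 point per array for siTARBP2-1, siTARBP2-2 and siControl; open points are not above background. Signals are comparable along a row and not between rows. The 3 arrays lie close together for most probes, SNHG3 spreads from 5.06 to 6.06, and the 3 GAS5 points are all open.

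SNHG3, the host of the U17 snoRNAs SNORA73A and SNORA73B, stood furthest below the control, at a dim probe. Its raw signals were 81.3 with siRNA 1, 84.2 with siRNA 2 and 103 in the control, and its normalized signals were 5.06, 5.54 and 6.06. The control was highest and the siRNA 1 array lowest, and on the siRNA 1 array the probe was not above background. With the processing used here, SNHG3 was therefore at least 1.75-fold lower with siRNA 1, while with siRNA 2 it differed by -0.52, which is 69.6% of the control signal. The fit takes the siRNA 1 signal as it stands, although only a bound holds for it, and its mean difference of -0.76 ± 0.29 (moderated SE, n = 2 against 1) is therefore no measured value. It had an unadjusted p of 0.0302 in limma and did not pass after adjustment (adjusted p = 0.99991, and 0.99984 to 1 over the alternative settings). With siRNA 2 alone, where the probe was above background, the difference was -0.52.

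By the 1.5-fold rule of size, with no test, SNHG3 was the 1 host of 8 past it with siRNA 1, on the lower side, where 1.36% of all genes were lower and 1.26% higher. Among the 1617 genes within 0.5 log2 units of its mean signal, the lower share was 3.59% with siRNA 1 and 6.99% with siRNA 2. With siRNA 2 none of the 8 hosts passed 1.5-fold, beside 4.88% of all genes lower and 5.27% higher. The SNHG3 difference depended on how dim signals were handled. Its mean was -0.35 without background correction, -0.45 with an offset of 50 and -0.37 with the authors' deposited normalized intensities, and SNHG3 then no longer passed 1.5-fold with siRNA 1.

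SNHG1, which holds a cluster of box C/D snoRNAs including SNORD25 to SNORD31 and SNORD22, was bright on every array. Its normalized signals were 11.27 with siRNA 1, 11.58 with siRNA 2 and 11.75 in the control. Both knockdown arrays lay below the control, at -0.47 (72.0% of control) and -0.17 (88.8% of control). The mean difference of -0.32 ± 0.26 (SE, n = 2 against 1) had a 95% confidence interval of -0.93 to 0.29 and did not pass (limma adjusted p = 0.99991). With siRNA 1, 2.76% of genes were as low or lower, and with siRNA 2 it was 25.6%. With equal array medians the differences were -0.15 and -0.26, so that the siRNA 2 array was the lower, and relative to the median of all genes under that scaling they were -0.46 and -0.20. The raw signals of SNHG1 were nearly equal at 3149 (siRNA 1) and 3139 (control), on arrays whose mean raw signals over all probes were 680 and 528. The part of this array-wide brightness in the SNHG1 difference was not tested beyond the normalizations compared here.

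SNHG6 and SNHG8 were the other hosts whose mean lay below control by more than 0.1. SNHG6, the host of SNORD87, had normalized signals of 10.40, 10.84 and 10.78 (siRNA 1, siRNA 2, control). Only the siRNA 1 array stood low, at -0.38, while the siRNA 2 array differed by 0.05, and the mean was -0.16 ± 0.28 (SE, n = 2 against 1). Without the siRNA 1 array its difference thus changed sign. SNHG8, the host of SNORA24, had signals of 7.82, 7.67 and 7.92, with the siRNA 2 array lowest. It differed by -0.10 and -0.25, with a mean of -0.17 ± 0.25. Neither passed (limma adjusted p = 0.99991).

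SNHG5 and SNHG7 were the 2 hosts whose mean lay above control, and each could be read at more than 1 probe. SNHG5, the U50 host, gave 12.97, 13.18 and 12.89 (siRNA 1, siRNA 2, control) at its brighter probe ILMN_1653794 and 11.38, 11.72 and 11.40 at ILMN_2200659. At both probes the siRNA 2 array was highest, by 0.29 and 0.31 over control, while the siRNA 1 array differed by 0.08 and -0.02. SNHG7, the host of SNORA17A and SNORA17B, gave 10.27, 10.34 and 10.11 at ILMN_3227023. At all 3 of its probes the control array was lowest. The differences with siRNA 1 were 0.16, 0.12 and 0.10 at ILMN_3227023, ILMN_3233205 and ILMN_3233229. With siRNA 2 they were 0.23, 0.42 and 0.34 in the same order. Probes of a gene read the same RNA on the same arrays and are no replicates of the knockdown. The mean difference was 0.18 ± 0.26 for SNHG5 and 0.19 ± 0.25 for SNHG7 (SE, n = 2 against 1), and neither passed (limma adjusted p = 0.99991).

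SNHG12 and SNHG15 lay nearest to the control. SNHG12, which holds SNORA16A, SNORA44, SNORA61 and SNORD99, had signals of 6.98, 7.08 and 7.06 (siRNA 1, siRNA 2, control), with a gap of 0.10 between the lowest and the highest. Its mean difference was -0.03 ± 0.25 (SE, n = 2 against 1), with a 95% confidence interval of -0.61 to 0.55. SNHG15, the host of SNORA9, gave 10.24, 10.17 and 10.29 at ILMN_1898124 and 10.07, 10.23 and 10.16 at ILMN_3248773. The siRNA 2 array was the lowest of the 3 at the first probe and the highest at the second, so the probes placed it on opposite sides of the control (-0.12 and 0.07). The mean at the brighter probe was -0.08 ± 0.25 (adjusted p = 0.99991 for both genes in limma). With array medians set equal in place of quantile normalization, the means turned to 0.07 for SNHG12 and 0.03 for SNHG15. That scaling also moved the median of all genes to 0.12, and relative to it they were -0.05 and -0.09.

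GAS5, the growth arrest-specific transcript, could not be measured. Its 1 probe, ILMN_1754378, had raw signals of 80.0, 63.2 and 66.4 (siRNA 1, siRNA 2, control) with detection p-values of 0.0286, 0.213 and 0.129. None was under 0.01, so no fold is given. Which GAS5 exon or intron the probe matches is not given in the sources used here, and a dim probe sets no limit on the abundance of GAS5.

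**Figure D2:**
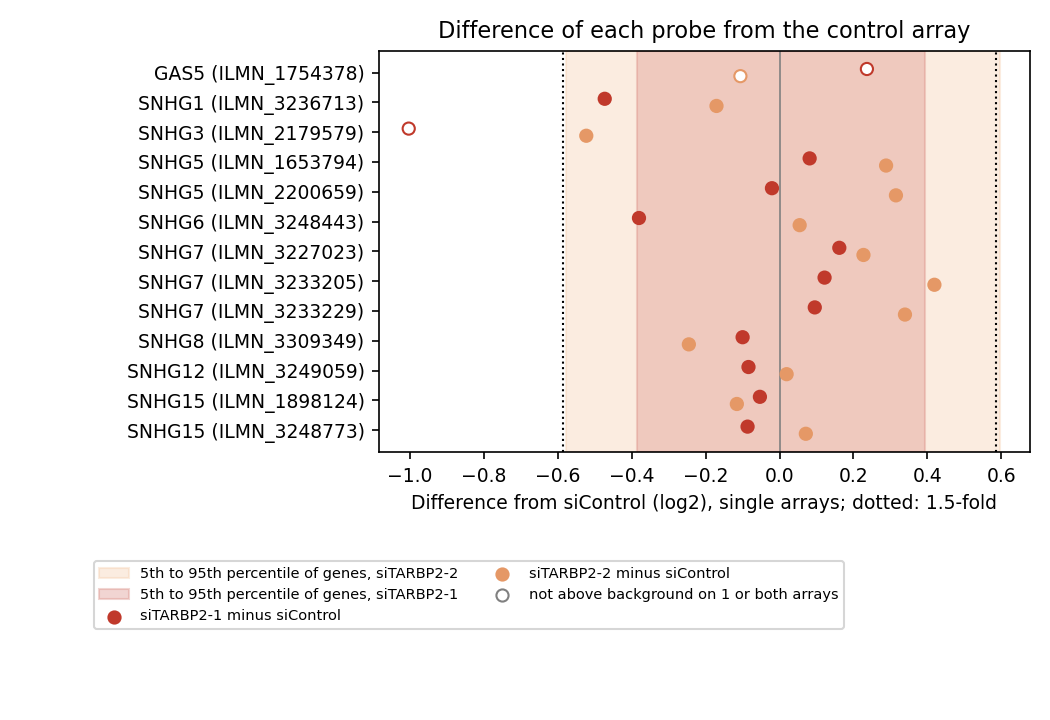
Difference of each host probe from the control array (log2, x axis) for siTARBP2-1 and siTARBP2-2, single arrays; open points are not above background on 1 or both arrays, dotted lines mark 1.5-fold, and the shaded bands span the 5th to 95th percentile of all tested genes for each siRNA. SNHG3 with siRNA 1 is the one point past 1.5-fold, an open point at -1.0, and SNHG1 with siRNA 1 lies at -0.47, below the 5th percentile of -0.39.

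The siRNA arrays can also be set against each other, a comparison in which the control array has no part. None of the 8 hosts differed by 1.5-fold between them, beside 5.12% of all genes higher with siRNA 1 and 5.01% lower. Among the hosts above background on both arrays, the widest gaps were in SNHG6 (-0.43, siRNA 1 minus siRNA 2) and SNHG1 (-0.30). SNHG3, not above background with siRNA 1, was at least 1.22-fold lower there than with siRNA 2. In these 3 the siRNA 1 array was the lower, as it was at the brightest probe of SNHG5 (-0.21), SNHG12 (-0.10) and SNHG7 (-0.07). SNHG8 (0.15) and SNHG15 at its brighter probe (0.06) ran the other way, while the other SNHG15 probe was at -0.16. With equal array medians the SNHG1 and SNHG6 gaps were 0.11 and 0.00, and those of SNHG8 and SNHG15 widened to 0.57 and 0.51. The median of all genes then stood at 0.31 with siRNA 1 and -0.06 with siRNA 2, so these gaps move with the scaling of the siRNA 1 array.

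The snoRNAs carried by the hosts were read from their own probes, matched by symbol. RefSeq places 36 snoRNA genes inside the 10 hosts. Of these, 30 had a probe, 15 were above background on at least 1 array and 11 on all 3. The 12 probes of those 11 snoRNAs differed from control by -0.49 to 0.12 with siRNA 1 and by -0.39 to 0.40 with siRNA 2. Of these probes 0 passed 1.5-fold, beside 1.36% of all genes lower and 1.26% higher with siRNA 1. With siRNA 2 those shares were 4.88% and 5.27%, and nothing is read from so few probes. Among the 15 snoRNAs, SNORD76 alone had a difference from control past 1.5-fold, -0.74 with siRNA 2. It was not above background there, so only a bound of at least 1.13-fold lower holds, short of 1.5-fold. SNORD76 was above background on the control array alone and was kept through it, so nothing is read from its direction. Mature snoRNAs carry no poly(A) tail, and whether such a probe read the mature snoRNA, the intron or the unspliced host was not tested.

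Set beside their hosts, the snoRNA probes of SNHG3 lay nearer to the control. With the processing used here, the SNHG3 host stood at least 1.75-fold lower with siRNA 1. Without background correction the host was at -0.45, and with the authors' intensities at -0.47, from a probe not above background on that array. With siRNA 1 and the processing used here, SNORA73A was at -0.07 and the 2 SNORA73B probes at -0.09 and -0.04. With siRNA 2, SNORA73A was at -0.09 and the SNORA73B probes at -0.28 and -0.07, beside -0.52 for the host. SNORA73A and SNORA73B are near-identical copies, so their probes may share target. In SNHG1 the host was lowest with siRNA 1, whereas SNORD31, SNORD30 and SNORD25 were at 0.00, -0.09 and -0.11 with siRNA 1 and lower with siRNA 2, at -0.23, -0.29 and -0.36. SNORD22, from the same gene, was at 0.12 and 0.40. In SNHG6 the host was at -0.38 and 0.05, and its SNORD87 at 0.10 and 0.33.

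In SNHG8 and SNHG12 the snoRNA probes lay further from control than the host. SNORA24 was at -0.49 with siRNA 1 and -0.39 with siRNA 2, where SNHG8 was at -0.10 and -0.25. SNORA61 was at -0.34 and 0.05 and SNORD99 at -0.28 and -0.06, where SNHG12 was at -0.08 and 0.02. In GAS5 the host probe was not above background on any array, yet the box C/D SNORD80 in the same gene was, with raw signals of 532, 298 and 382 (siRNA 1, siRNA 2, control) and differences of 0.03 and -0.31. SNORD76, also in GAS5, was above background only in the control and was kept through that array. Its bound of at least 1.19-fold lower over the knockdown arrays is therefore not read as a result. The snoRNAs of SNHG5 and SNHG7, 2 in each, were not above background on any array although both hosts were bright. No snoRNA passed limma's test (adjusted p = 0.99991 for SNORA24).

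**Figure D3:**
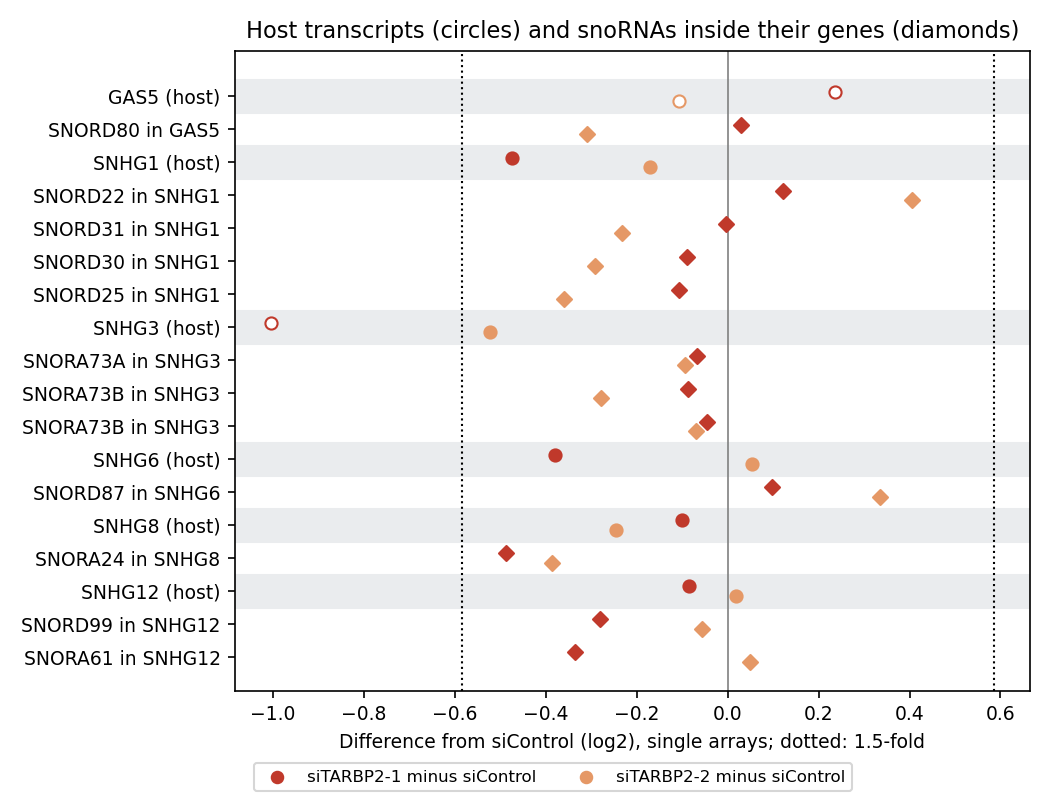
Difference from the control array (log2, x axis) of 6 hosts (circles, grey rows) and of the snoRNA probes inside their genes that were above background on all 3 arrays (diamonds), for siTARBP2-1 and siTARBP2-2, single arrays; open points are not above background on 1 or both arrays. The SNHG3 circles lie at -1.0 (open) and -0.52 while the 3 SNORA73 rows below them stay between -0.28 and -0.04.

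Genes that share a start region or overlap with a host in the RefSeq table were read beside it. SLC3A2, the heavy chain of the CD98 amino acid transporters, starts on the opposite strand within 1000 bases of SNHG1. At its brighter probe it was at -0.20 with siRNA 1 and 0.00 with siRNA 2, beside -0.47 and -0.17 for SNHG1. Its other probe placed the arrays in the opposite order, at 0.03 and -0.45. RCC1, the nucleotide exchange factor of the GTPase Ran, overlaps SNHG3. Its brightest probe was at 0.23 and 0.13, above control where SNHG3 was below, and its other probes ran from -0.27 to 0.31. RCC1 transcripts can include SNHG3 exons, so part of the RCC1 and SNHG3 signal may come from shared sequence, which was not tested. MCMDC2, which overlaps SNHG6 and encodes a meiotic relative of the MCM helicase subunits, was at 0.13 and 0.68 at its brighter probe. The other MCMDC2 probe was not above background on any array, and which RNA the brighter one reads was not tested. TRNAU1AP, a factor of selenocysteine tRNA, overlaps SNHG12 and at its brighter probe was at -0.02 and 0.02. Its other probe was at 0 and 0.20. ZBTB37, head to head with GAS5, was not above background, like GAS5 itself, and neither was DIPK1B, which overlaps SNHG7. None of these passed (limma adjusted p = 0.99991 for SLC3A2, RCC1, MCMDC2 and TRNAU1AP).

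Of 19 further noncoding snoRNA hosts, 10 were measured, and 0 rose and 0 fell in limma's test. Their median mean difference was 0.04, beside -0.12 for the hosts above and 0.01 over all genes. SNHG10, whose gene also yields the Cajal body RNA SCARNA13, had the largest mean difference of the list. Its normalized signals were 6.54 with siRNA 1, 7.09 with siRNA 2 and 7.77 in the control, all above background. Both knockdown arrays were lower, at -1.24 and -0.68, and the mean was -0.96 ± 0.30 (SE, n = 2 against 1, limma adjusted p = 0.99991). The unadjusted limma p of SNHG10 was 0.0132. It was the 1 gene of the list past 1.5-fold in either comparison. Over all genes, 1.36% were past it lower and 1.26% higher with siRNA 1, and 4.88% and 5.27% with siRNA 2. ZFAS1, a TOP-type host on the antisense side of ZNFX1, was at 0.04 and 0.46, DANCR at 0.19 and 0.20, and SNHG11 at -0.33 and -0.04.

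The factors that degrade the spliced hosts were read as a list. Of 18 NMD and exon junction factors, 15 were measured, 0 passed in either direction (limma), and the median was 0.03 beside 0.01 over all genes. RBM8A, the Y14 subunit of the exon junction complex, was at -0.18 with siRNA 1. On the siRNA 2 array RBM8A was under the detection threshold and at least 1.91-fold lower. PNRC2, which joins UPF1 to the decapping enzymes, was at -0.03 and -0.68. SMG9, of the SMG1 kinase complex, was at 0.44 and 0.20, and CASC3, an exon junction protein, at -0.17 and -0.34. Of 14 genes known to make NMD-sensitive mRNAs or isoforms, 13 were measured, with 0 passing and a median of 0.04. Whether the probes read the NMD-sensitive isoforms was not tested, so this median need not be that of NMD targets. The widest means were in SRSF2, a splicing factor that makes NMD-sensitive isoforms of its own mRNA (0.01 and -0.40), and RPL12, a ribosomal protein (0.17 and 0.14). DDIT3 and ATF3, stress-response transcription factors, were at -0.49 and 0.19 and at -0.15 and -0.12.

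Protein-coding genes that share the host role or the TOP start gave medians near that of all genes. Of 35 protein-coding snoRNA hosts 29 were measured, with 0 passing in either direction and a median of 0.04. The widest means were in IPO7, an importin (-0.04 and -0.68), TNPO2, a transportin (0.21 and 0.39), RPL13A, a ribosomal protein (0.11 and 0.43), and PPAN, a ribosome assembly factor (0.16 and 0.25). Of 18 other TOP mRNAs 17 were measured, with 0 passing and a median of -0.03. Here RPS19 was at -0.30 and -0.16, NAP1L1, a histone chaperone, at 0.26 and 0.08, PABPC1, the poly(A) binding protein, at -0.01 and -0.25, and VIM, vimentin, at 0.11 and -0.34. All 17 proteins of the snoRNP core and its assembly were measured, with 0 passing and a median of 0.06. ZNHIT6, an assembly factor of box C/D particles, was at 0.14 and -0.77, with -0.09 and -0.94 at its other probe, so the siRNA 2 array alone stood low. RUVBL2, an ATPase of the same pathway, was at 0.34 and 0.25, NUFIP1 at 0.02 and -0.44, and RPAP3 at -0.23 and -0.18.

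**Figure D4:**
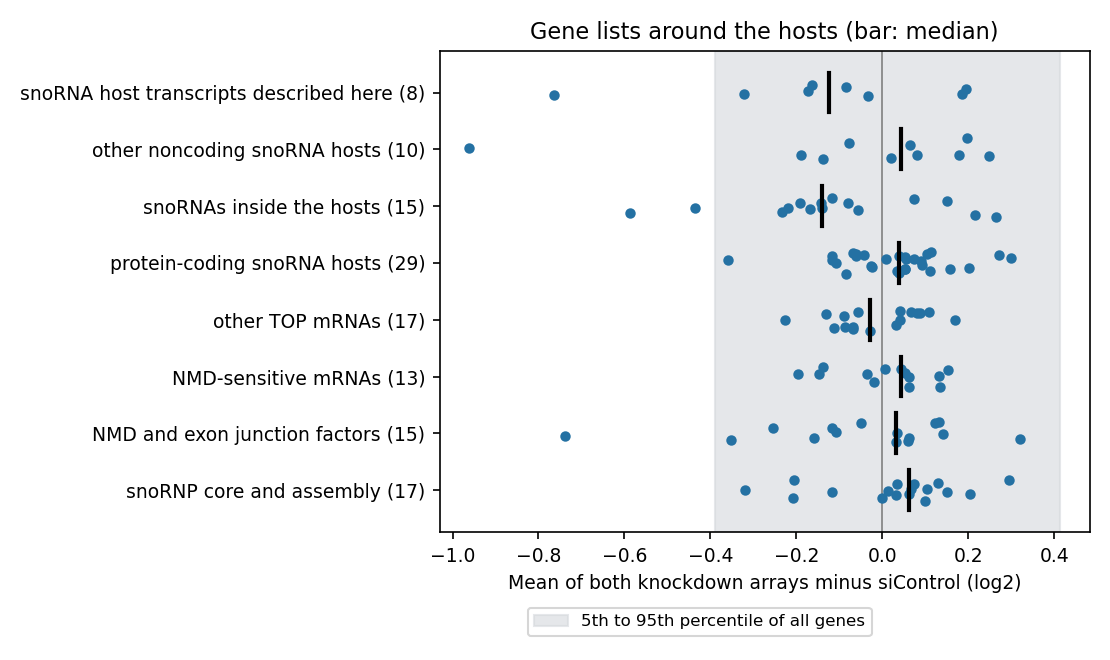
Mean of both knockdown arrays minus the control array (log2, x axis) for each measured gene (points) of 8 gene lists (y axis, number measured in brackets), with the list median as a bar and the 5th to 95th percentile of all tested genes shaded. The list medians lie between -0.14 and 0.06, and SNHG3 at -0.76, SNHG10 at -0.96 and RBM8A at -0.74 are the points furthest to the left. The means of SNHG3 and RBM8A include an array on which the probe was not above background, siTARBP2-1 and siTARBP2-2 respectively, so they are no measured values.

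The authors' deposited table of fold changes, 1 value per accession on a log scale whose base is not stated, holds 10 of the 11 accessions of the host probes, all but that of GAS5. Its class 1, up-regulated by its header, holds 0 of these 10 accessions and 2.61% of the whole authors' deposited table, and nothing is read from so small a number. In the authors' deposited table SNHG1 had the lowest value, -0.31, followed by SNHG3 at -0.19 and SNHG6 at -0.16. The highest values in the authors' deposited table were 0.18 and 0.15 for the SNHG7 accessions and 0.14 for SNHG5. The authors' deposited normalized intensities, taken to log2, gave -0.45 and -0.17 for SNHG1 and -0.47 and -0.26 for SNHG3 (siRNA 1, siRNA 2), the last probe again not above background with siRNA 1.

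**Figure D5:**
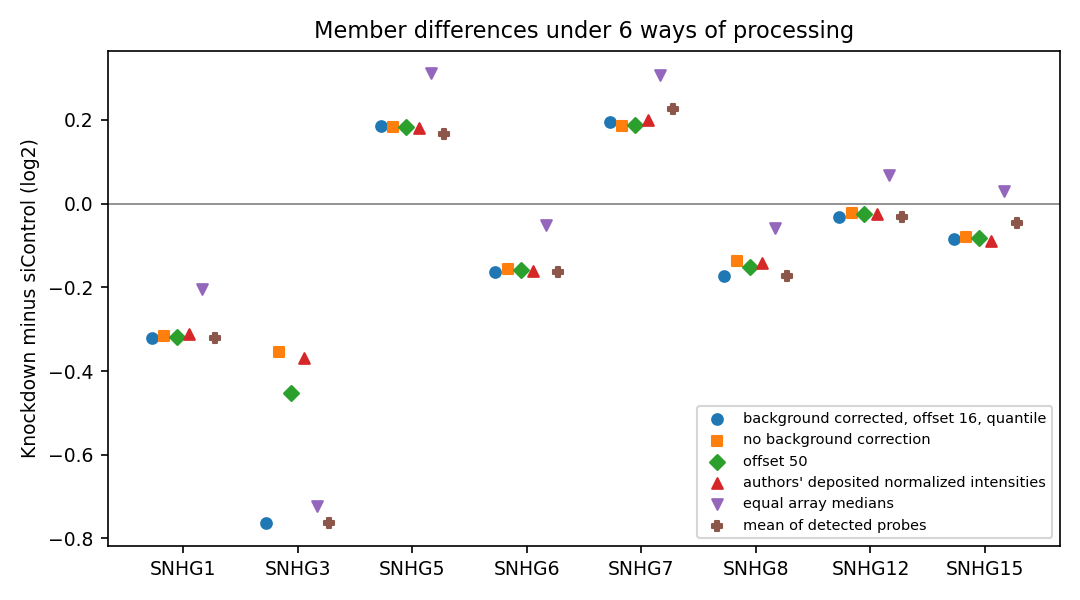
Mean of both knockdown arrays minus the control array (log2, y axis) for the 8 measured hosts (x axis) under 6 ways of processing, with 1 marker per setting. SNHG3, not above background with siTARBP2-1, runs from -0.76 to -0.35. SNHG1, SNHG5, SNHG6, SNHG7 and SNHG8 keep their side of 0, and SNHG12 and SNHG15 lie above 0 with equal array medians alone.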

How the data were processed

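Per the labels' protocols, total RNA was DNase treated and biotin labelled and hybridised to Illumina BeadChips. Per the file headers, the non-normalized table gives each probe's average signal intensity and a detection p-value. The authors also deposited normalized intensities, which share 1 distribution over the arrays, and a table of log fold changes of unstated base with a 0 or 1 class. Levels printed are log2 values computed here from the deposited non-normalized intensities, unless the authors' are named. Per the submitters' processing notes lumi was used; its version is not given in the sources used here.

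Signals went through neqc of limma 3.58.1 (R 4.3.3), which takes the background from those p-values, at offset 16. In the platform annotation 30113 probes had 1 symbol, 8 had several and 17202 were unlisted. Each gene was read at its brightest probe and kept if detected (p under 0.01) on any array, which left 11768 of 20046 genes. Knockdown (2 arrays) was compared with control (1 array) by lmFit and eBayes, two-sided, calling genes at a Benjamini-Hochberg adjusted p under 0.05. Residual degrees of freedom were 1 and prior ones 6.78, so each SE rests mainly on the spread shared across genes, and the lone control is assumed to vary like the knockdown arrays. Single arrays were compared by a 1.5-fold rule with no test. A bound ("at least N-fold") sets the bright signal against the higher of the dim probe's own signal and the lowest detected signal on that array. It holds only for this background correction and offset. Quantile normalization removes a shift common to most transcripts, and background correction widens differences of dim probes. On simulated data (14002 genes, this design) the fit called 90% of genes with a true log2 change of -2 and 96% at 2. It called 0% at -1 and 0% at 1. The simulated noise was set by hand and the changes lay only in bright genes, so these shares need not hold for the real arrays or for dim genes such as SNHG3. On the real arrays TARBP2, at a mean difference of -2.21, was not called (limma adjusted p = 0.328). Both siRNA comparisons share the control array.

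The hosts, gene lists and tests were chosen with earlier results of these data known. Named are all hosts, TARBP2, genes beside a host, and up to 4 genes per list with the largest mean difference. RCC1, MCMDC2, DIPK1B and TRNAU1AP, which overlap a host, and all snoRNAs beyond 4 (SNORD76, SNORA24, SNORD22, SNORD25) were named after their values were seen. Starts are from RefSeq, GRCh38.p14, and no build is named for the arrays. Alternatives covered background correction, offset, scaling, the authors' intensities, probe choice, filters, the variance prior and each siRNA left out.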

Additional observations from a re-analysis of the deposited data

How the results depend on the processing

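No host passed the test under any setting run, and SNHG1, SNHG3, SNHG5, SNHG6, SNHG7 and SNHG8 kept the side of 0 of their mean difference under every setting except SNHG6 without siRNA 1. Over all genes, 1 gene was called with the trend and robust prior and 1 with equal array medians, TARBP2 in both, against 0 otherwise. The count of hosts past 1.5-fold with siRNA 1, 1 in the reported setting, was 0 without background correction, 0 with an offset of 50 and 0 with the authors' intensities, where the gene concerned, SNHG3, is at -0.45, -0.58 and -0.47. It was 0 with detection on all 3 arrays, which leaves SNHG3 out. Equal array medians put SNHG12 at 0.0686 and SNHG15 at 0.0298 in place of -0.03 and -0.08, while the median of all genes moved to 0.119. That setting placed 71.4% of genes above control in place of 52.3%. Without siRNA 1, SNHG6 was at 0.0543 and SNHG12 at 0.0190, and without siRNA 2 they were at -0.38 and -0.0842. Leaving out 1 siRNA leaves no residual degree of freedom, so these are values with no test. No paired analysis was possible because there was 1 control array and the labels state no pairing. A lone control array and a SNHG3 signal near background limit what can be said of the hosts.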
